A study of Homo sapiens with 2 samples.

Results

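TMSB4X, TMSB10, ACTB, ACTG1, VIM and LGALS1 encode abundant proteins, most of them of the cytoskeleton, and were examined here for peaks of PRMT5 on chromatin. The peaks were selected by position alone, as all peaks of the deposited PRMT5 list that lay within 10 kb of the hg19 span of any of the 6 genes. That gave 6 of the 2840 peaks in the list. The genes themselves were chosen with earlier results of this list known, so the values below are descriptions and carry no test.

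The chromatin came from untreated MDA-MB-231 cells, an established line from a human breast cancer, grown in serum-containing medium. It was crosslinked with formaldehyde, sonicated and immunoprecipitated with an antibody against PRMT5. The series has 2 libraries, 1 of PRMT5 ChIP and 1 of input DNA that was not immunoprecipitated, and the input was not analysed here. No value has a replicate. The list holds no read counts, so the depth is unknown, and the absence of a peak does not show the absence of PRMT5. The labelled cell line has no check in these data, since a peak list holds no expression values.

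PRMT5 is an arginine methyltransferase that places symmetric dimethyl marks on histones and on splicing proteins, and it works in a complex with WDR77. Actin filaments are built from monomers, and thymosin beta proteins bind those monomers and hold them out of filaments. Vimentin forms intermediate filaments and is a common marker of mesenchymal cells, and MDA-MB-231 is known as a mesenchymal-like line. At protein-coding genes, RNA polymerase II begins at the promoter and usually runs on past the annotated end, the site where the RNA is cut and polyadenylated, before it is released.

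PRMT5 peaks lay beside 5 of the 6 genes, and every one of the 6 peaks lay just past the gene's end. TMSB4X, TMSB10, ACTG1 and VIM each had 1 peak, ACTB had 2 and LGALS1 had 0. None of the 6 peaks overlapped a gene and none lay upstream of a start. The peak nearest to each of the 5 gene ends began between 79 and 309 bp past it. For scale, hg19 was cut into consecutive windows as long as a gene with its flanks. Of windows as long as that of TMSB10, the shortest, 1.43% held a peak, and of windows as long as that of VIM, the longest, 1.93% did. Those shares are over full chromosome lengths, unassembled sequence included, and the genes were not a sample drawn without regard to the peaks.

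**Figure D1:**
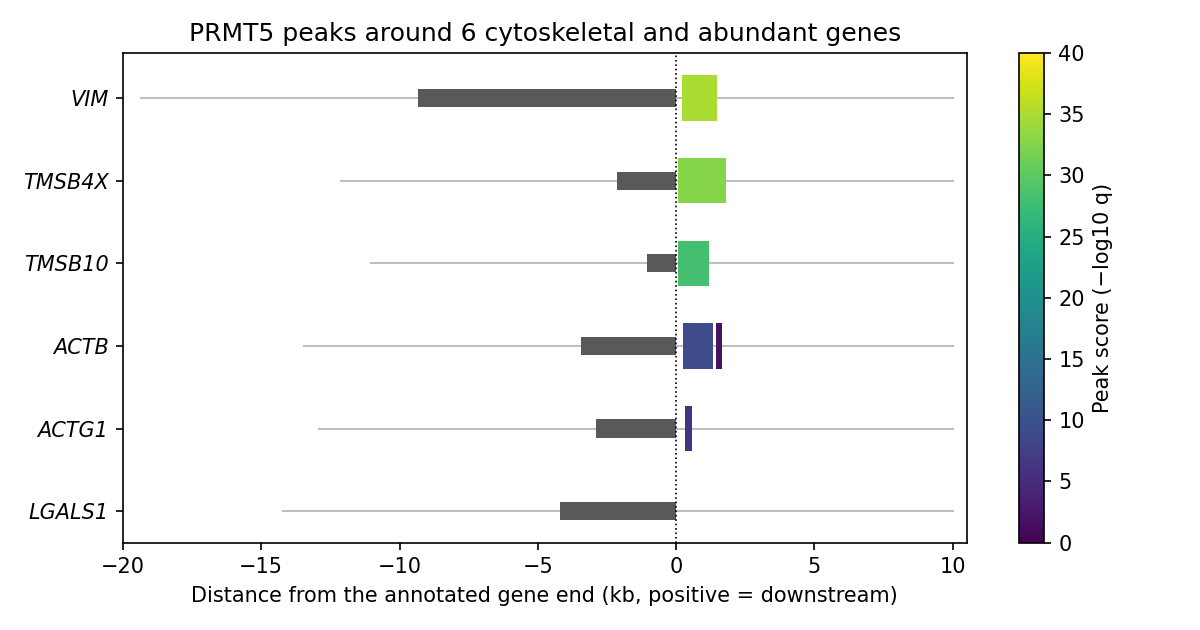
PRMT5 peaks around the 6 genes, aligned at the annotated gene end, with distance in kb on the horizontal axis and positive values downstream on the gene's strand. Dark bars are gene spans, grey lines the gene with 10 kb on either side, and coloured blocks the peaks, with colour giving the score. All 6 blocks sit to the right of the gene end, and the farthest reaches 1810 bp past it.

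The starts of these genes are shown as sequence because no peak reached them. The RefSeq promoter table (GRCh38.p14) matched 4 of the 6 genes. ACTB and LGALS1 were not matched. The starts are those of that table and may differ from the hg19 starts used for the peak distances. Span lengths in hg19 minus GRCh38.p14 were 67 bp for ACTG1, 21 bp for TMSB10, 7 bp for TMSB4X and -18 bp for VIM. At which end the spans differ was not determined. The 100 bases before the start are given 5′ to 3′ on the gene's strand, in lower case, with capitals for matches on either strand to GGGCGG (the core of a GC box), to TATAA (the core of a TATA box) or to the CArG box, the element bound by serum response factor. The motifs were chosen after the sequences were seen. The windows lie at chrX:12975010-12975109 on the plus strand for TMSB4X, chr2:84905556-84905655 on the plus strand for TMSB10, chr17:81512800-81512899 on the minus strand for ACTG1 and chr10:17228141-17228240 on the plus strand for VIM, all in GRCh38.p14, whereas every peak and gene position elsewhere in the text is hg19.
TMSB4X: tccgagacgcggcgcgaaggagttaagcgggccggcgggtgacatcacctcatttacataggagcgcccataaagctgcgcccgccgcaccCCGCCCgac
TMSB10: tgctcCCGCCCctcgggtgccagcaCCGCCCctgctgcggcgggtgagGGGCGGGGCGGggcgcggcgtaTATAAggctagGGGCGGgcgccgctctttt
ACTG1: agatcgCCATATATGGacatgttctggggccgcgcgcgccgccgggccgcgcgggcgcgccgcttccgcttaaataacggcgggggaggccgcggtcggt
VIM: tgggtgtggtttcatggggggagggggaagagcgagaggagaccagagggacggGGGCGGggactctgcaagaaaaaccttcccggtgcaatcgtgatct

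TMSB10 held 5 matches to GGGCGG in this window, and TMSB4X and VIM held 1 each. TMSB10 also held 1 match to TATAA, and ACTG1 held 1 CArG box and 0 matches to GGGCGG. Among the 35116 promoter sequences of the table, 31.3% held GGGCGG, 9.00% TATAA and 0.578% a CArG box in the same 100 bases. G and C made up 61.0% of the window of VIM, 67.0% of that of TMSB4X, 72.0% of that of ACTG1 and 76.0% of that of TMSB10. A match is a description of the letters only. The sequences under the peaks are not printed, as no hg19 genome was used here.

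Thymosin beta 4, the product of TMSB4X, is the main monomer-binding thymosin of many cells. Its gene spans 12993226 to 12995346 on the plus strand of the X chromosome. The peak spanned 12995425 to 12997156, so that it began 79 bp past the gene's end and stopped 1810 bp past it. Measured from the gene's start, its edges lay 2199 and 3930 bp downstream. At 1732 bp it was the widest of the 6 peaks and ranked 11th in width in the whole list. The authors' caller gave it a score of 32.7. The list does not name the unit of the score, which is taken as the −log10 of the q-value, growing with confidence in the peak. The TMSB4X peak ranked 100th of 2840 by score, and 96.5% of peaks scored lower.

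TMSB10 encodes thymosin beta 10, a close relative that also binds actin monomers, and its peak lay at nearly the same place relative to the gene. The gene spans 85132763 to 85133799 on the plus strand of chromosome 2 and is the shortest of the 6 at 1037 bp. The peak spanned 85133880 to 85134992, from 81 to 1193 bp past the end. Its edges lay 1117 and 2229 bp from the gene's start, which made it the closest of the 6 peaks to a start. It was 1113 bp wide and scored 28.0, higher than 94.9% of the list. The 2 thymosin peaks thus began 79 and 81 bp past their gene ends, and that of TMSB4X reached farther downstream.

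The strongest of the 6 peaks belonged to VIM, the gene of vimentin. VIM spans 17270258 to 17279592 on the plus strand of chromosome 10 and is the longest of the genes at 9335 bp. Its peak spanned 17279819 to 17281062, from 227 to 1470 bp past the end, and was 1244 bp wide. From the gene's start this was 9561 to 10804 bp away. Despite that length, the gap between gene end and peak was within the range of the shorter genes. The score was 34.9, rank 87 of the list, and 96.9% of peaks scored lower.

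The cytoplasmic actin genes ACTB and ACTG1, whose products form most filaments outside muscle, had weaker peaks than the thymosins and VIM. ACTB spans 5566779 to 5570232 on chromosome 7 and is read from the minus strand, so that its end is the lower coordinate. The larger of its peaks spanned 5565436 to 5566522, from 257 to 1343 bp past the end, and was 1087 bp wide. It scored 9.15, with 59.4% of the list below it. The smaller spanned 5565139 to 5565330, from 1449 to 1640 bp past the end, and was 192 bp wide. Its score of 1.87 was close to the lowest in the list, 1.303, and only 22 peaks scored lower. The ACTB peaks lay 106 bp apart, and joined they made a stretch of 1384 bp.

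ACTG1 had a narrow and weak peak. The gene spans 79476997 to 79479892 on the minus strand of chromosome 17. The peak spanned 79476410 to 79476688, from 309 to 587 bp past the end, and was 279 bp wide. Its score was 5.999, below the list's median of 7.80, and 31.4% of peaks scored lower. It was the peak that began farthest from its gene's end if the smaller ACTB peak is set aside, and it ended nearest to one.

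LGALS1 encodes galectin-1, a sugar-binding protein that is not part of the cytoskeleton. It spans 38071613 to 38075809 on the plus strand of chromosome 22 and was the only one of the 6 genes with no peak in the 10 kb on either side. The nearest peak lay 127.7 kb downstream, at 38203498 to 38203649, with a width of 152 bp and a score of 5.29. Since the depth is unknown, an enrichment at LGALS1 may have gone undetected.

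**Figure D2:**
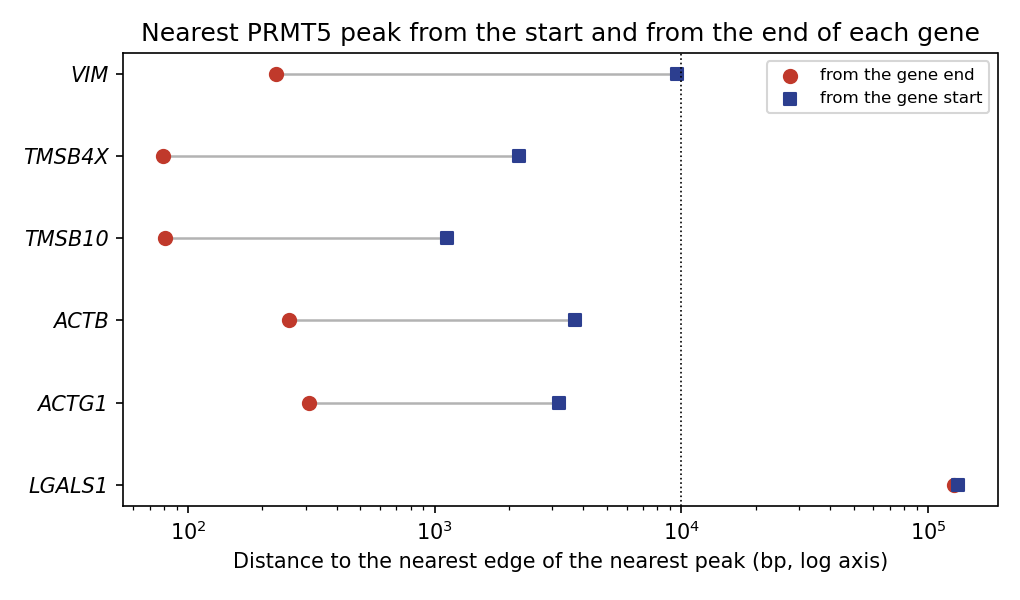
Distance in bp, on a log axis, from the end (circles) and from the start (squares) of each gene to the nearest edge of the nearest PRMT5 peak, with the 10 kb limit as a dotted line. In the 5 genes with a peak the circles lie between 79 and 309 bp and the squares between 1117 and 9561 bp, and for LGALS1 both lie beyond 100 kb.

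The peaks shared a position at the gene end and not at the gene start. Within the 5 genes the distance from the start to the nearest peak ran from 1117 to 9561 bp, and 0 of the 6 starts had a peak within 1 kb. Neither value is a separate result. With every peak past the gene's end, the distance from the start is set by the gene's length and the gap past its end. Even the shortest gene, TMSB10, is 1037 bp long, so such a peak lies more than 1 kb from its start. Upstream flanks of 10 kb, 60000 bp in all, had 0 bases under a peak. The gene spans, 23040 bp in all, also had 0. Of hg19 windows as long as a gene with its flanks, only 1.43% to 1.93% held a peak. Those windows were placed without regard to genes, and no share was computed for gene starts, upstream flanks or gene spans. Whether the lack of peaks there sets these genes apart was therefore not tested. The downstream flanks had 5647 bp under a peak, of which 1732 bp lay beside TMSB4X, 1279 bp beside ACTB, 1244 bp beside VIM, 1113 bp beside TMSB10 and 279 bp beside ACTG1. All of it lay in the first 1810 bp past a gene end.

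No peak lay near the 10 kb limit. The farthest peak inside it, the smaller one of ACTB, began 1449 bp from its gene, and the nearest outside it was that of LGALS1 at 127.7 kb. Beyond the limit the next peak was 133.5 kb from TMSB4X, 165.5 kb from VIM, 199.5 kb from ACTB, 345.2 kb from ACTG1 and 592.5 kb from TMSB10. The peaks of TMSB4X, TMSB10, ACTG1 and VIM were therefore isolated. Their nearest other peak lay 131.7, 591.3, 348.4 and 175.1 kb away, against a median of 31.0 kb over the list and 1.25 kb over the 54 peaks wider than 1 kb. Both medians include groups of close peaks, as merging peaks within 1 kb cut the list from 2840 to 2335.

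Most of the 6 peaks were wide. The genes with a peak wider than 1 kb were TMSB4X, VIM, TMSB10 and ACTB, with widths of 1087 to 1732 bp. That is 4 of 6 peaks, whereas 1.90% of all peaks outside the mitochondrial sequence were that wide. The median width was 1100 bp for the 6 peaks and 210 bp for the list. Among the 54 wide peaks those of VIM, TMSB4X and TMSB10 ranked 25th, 31st and 36th by score, near the middle, where the median was 34.1. The wide ACTB peak ranked 52nd, among the weakest of its width.

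The scores of the 6 peaks were unequal. VIM, TMSB4X and TMSB10 scored 34.9, 32.7 and 28.0, and the other 3 peaks scored 9.15, 5.999 and 1.87. Thus 3 of 6 peaks lay above the list's upper quartile of 12.4, against 25% of all peaks by construction. The median was 18.6 for the 6 peaks and 7.80 for the list, but 18.6 is the midpoint of a gap between 9.15 and 28.0 in which none of the 6 peaks lay. Without the smaller ACTB peak, as with a limit of 1 kb or with peaks within 1 kb merged, the median was 28.0, and it was 30.4 and 32.7 in the highest-scoring 50% and 25% of the list. With 1 library, the order of the 3 high scores cannot be set against a spread between cultures. Score and width come from the same reads and caller, and they are not independent measures.

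**Figure D3:**
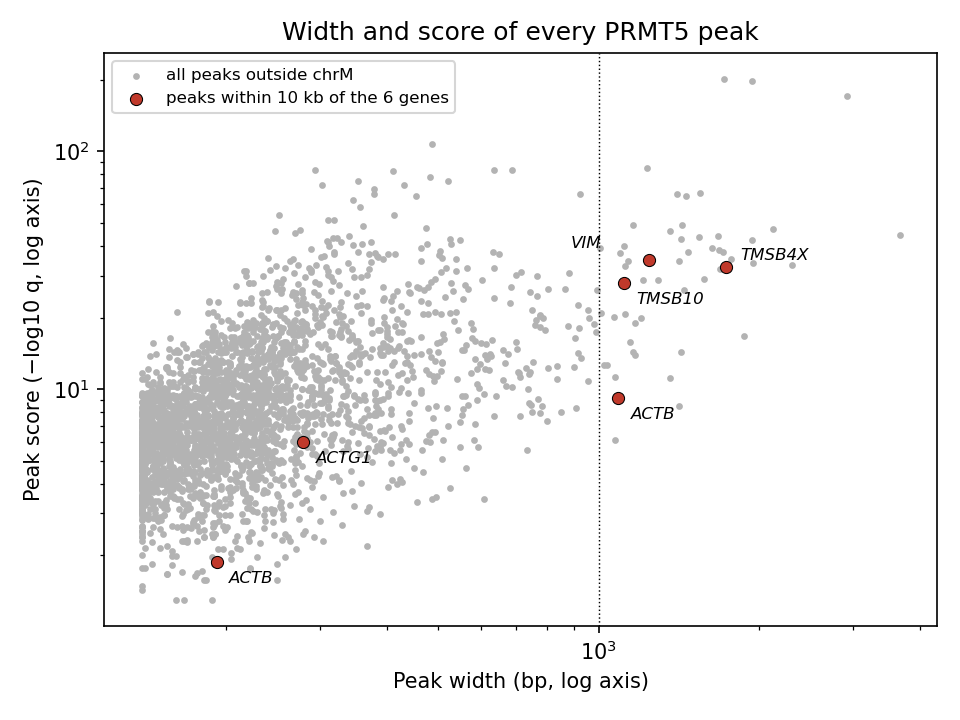
Score (taken as −log10 q) against width in bp for every PRMT5 peak outside the mitochondrial sequence, on log axes. The 6 peaks beside the cytoskeletal genes are in red and the 1 kb width is a dotted line. VIM, TMSB4X and TMSB10 sit among the wide, high-scoring peaks, the larger ACTB peak is wide with a score of 9.15, and ACTG1 and the smaller ACTB peak sit among the narrow ones.

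Copies and neighbours of these genes limit what the positions show. The RefSeq gene table lists 21 pseudogenes named after ACTG1, 14 after ACTB, 8 after TMSB4X, 2 after TMSB10 and 0 after VIM and LGALS1. The treatment of reads that align to several places was not given in the sources used here. The part of such copies in the scores, and in the lack of peaks over the gene spans, was not tested. In the same table the next gene past the end is FAM9C for TMSB4X, the ribosomal pseudogene RPS2P17 for TMSB10, LINC01971 for ACTG1, ST8SIA6 for VIM and an uncharacterised long noncoding RNA gene for ACTB. VIM-AS1 overlaps VIM, and another long noncoding RNA gene overlaps TMSB10. Whether a peak falls in one of these was not determined, because the table's positions are of another build.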

How the data were processed

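PRMT5 ChIP and input DNA of MDA-MB-231 cells were sequenced, 1 library each, and the PRMT5 peak list was analysed. Per the submitters' processing notes, the tools were CASAVA 1.4, Bowtie2 and MACS2 and the build hg19, with no roles or settings. The deposited list gives positions and a score, taken as a q-value on the −log10 scale because its smallest value, 1.303, lies at the −log10 of 0.05 and the file has no header. The use of the input as control was not given in the sources used here. Gene spans are hg19 positions supplied with the gene list, not read from a deposited file, and their lengths differ from the RefSeq GRCh38.p14 lengths by -18 to 67 bp. Positions count from 1, and a distance is the difference between the nearest bases, along the gene's strand. The genes, list and rules were chosen with earlier results of these data known. All 6 genes and every peak within 10 kb are named. A planned count over other cytoskeletal genes was not run, as it needs an hg19 annotation. Distances were tested on 1200 simulated peaks at known positions upstream or downstream of the genes, and 1200 were recovered. None was placed over a gene, so the detection of overlap with a gene was not tested in this way. Window shares used hg19 lengths from GenomeInfoDb 1.38.1 on chromosomes 1 to 22 and X. Calculations used Python 3.11.15, numpy 2.4.6, pandas 2.3.3 and matplotlib 3.10.9.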

Additional observations from a re-analysis of the deposited data

How the results depend on the processing

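Every peak stayed downstream of its gene end, and the covered share of each gene stayed 0%, in the alternatives run for these results. These were distance limits of 1, 5 and 20 kb, distance from the peak centre, merging of peaks within 1 kb and the highest-scoring 50% and 25% of the list, and, chosen after seeing the data, a limit of 100 kb. A width threshold of 500 bp, also chosen then and run for the number of wide peaks alone, left that number at 4. The side of the peaks and the covered share could not have changed under the settings run. Those settings keep, drop or join peaks of the same list, and the nearest peak beyond the 10 kb limit lay 127.7 kb away. That both stayed the same is therefore no added support. In the highest-scoring 25%, 3 peaks beside 3 genes were left (TMSB4X, TMSB10 and VIM), all 3 downstream, because the peaks of ACTB and ACTG1 score lower. The median score of 18.6 became 28.0 with a limit of 1 kb or with merging, 30.4 in the highest-scoring 50% and 32.7 in the highest-scoring 25%. The median width of 1100 bp became 1113 bp with a limit of 1 kb, 1179 bp (1178.5) in the highest-scoring 50%, and 1244 bp in the highest-scoring 25% or with merging. Each of these removes or joins the weaker peaks. The larger peak of ACTB is among the highest-scoring 50%, and the smaller peak of ACTB and that of ACTG1 are not. What depth limits cannot be stated without read counts. No paired analysis was possible because there is only 1 library of each kind.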
